A study of Mus musculus with 8 samples.

Results

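The unfolded protein response and secretory pathway was followed as 43 listed genes in the lungs of mice with ovalbumin (OVA)-induced allergic airway inflammation. The genes were listed by name for their roles in the endoplasmic reticulum (ER), and each was found on the array by its RefSeq accession. All 43 had a probe, and in all 43 the brightest probe, which stands for the gene, was well above background on all 8 arrays. They are 43 of the 28985 genes and unnamed transcripts kept for testing, of 45616 with a probe.

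Proteins that leave the cell or sit in its membranes are threaded into the ER through the translocon, lose their signal peptide, are folded by chaperones and disulfide isomerases, and are handed to ER-associated degradation when they fail to fold. Unfolded protein in the ER activates the membrane sensors IRE1, PERK and ATF6, which raise the transcription factors XBP1, ATF4 and cleaved ATF6 and through them the folding, export and degradation genes. In the lung this machinery is best known from cells that secrete in bulk, such as mucous cells of the airway, alveolar type 2 cells and antibody-secreting plasma cells.

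Female BALB/c mice, bought at 4 weeks of age and housed for 2 weeks, were fed freely for 70 days. NT mice had standard feed and no allergen. Ctrl-F mice had standard feed, Cap-F mice had feed with control particles of carbonate apatite, and ODNcap-F mice had feed with the same particles holding a CpG-oligodeoxynucleotide. These 3 groups were injected with OVA in alum between Days 42 and 56 and inhaled OVA aerosol from Day 63 to Day 69. Lungs were taken on Day 70 from 2 mice of each group, and the RNA of each mouse was hybridized to 1 single-color Agilent array. Values are log2 intensities after quantile normalization, a difference of 1 is a 2-fold change, and 2 mice per group limit the precision. In a 2-against-2 comparison an exact permutation test of a single gene cannot give a p below 0.333, so calls rest on limma, fitted over all probes, at a Benjamini-Hochberg adjusted p under 0.05.

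Arrays of mice of the same group correlated between 0.994 and 0.996 over all kept probes, and no spot was saturated. Within the members the ODNcap-F mice differed, as given below. Lung markers were bright on all arrays, with a mean log2 signal over Sftpc, Sftpb, Sftpa1, Scgb1a1 and Ager between 16.5 and 16.8. NT and Ctrl-F arrays lay in one row of the slide and Cap-F and ODNcap-F arrays in the other, so that row and group cannot be told apart where Cap-F or ODNcap-F is compared with NT or Ctrl-F. The median over all genes lay below 0 against NT, at -0.12 for Ctrl-F, -0.11 for Cap-F and -0.12 for ODNcap-F, and moved by less than 0.1 with another scaling.

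Most of the pathway was higher in the lungs of challenged mice than in NT lungs, whatever the feed. In Ctrl-F against NT, 34 of the 43 members were called higher and 1 was called lower by limma, where 61.9% of all genes were called in either direction, 26.2% higher and 35.7% lower. Of these 34, 19 were more than 2-fold higher, where 10.5% of all genes were. The median over the 43 members was 0.78 on the log2 scale. Cap-F against NT gave 33 higher and 1 lower, where 56.6% of all genes were called, 24.1% higher and 32.4% lower, with a median of 0.83 over the members. More than 2-fold higher were 18 (9.74% of all genes). ODNcap-F against NT gave 36 higher and 1 lower, where 60% of all genes were called, 25.1% higher and 34.9% lower, with a median of 0.85. More than 2-fold higher were 19 (9.86% of all genes). These 3 comparisons share the same NT mice. By the brightest probe and limma, 32 members were called higher in all 3 and Ddit3 lower in all 3. Called in none by that probe were Atf4, Canx, Dnajb9, Dnajc3, Herpud1 and Trib3. The other 4, Creb3l4, Eif2ak3, Sel1l and Ssr1, were called in some. Of the 6 called in none, 4 passed the local-pooled-error test in some group, Dnajb9 and Herpud1 as higher in Ctrl-F, Dnajb9 also in ODNcap-F, and Atf4 and Trib3 as lower in Cap-F. In 36 members all 6 challenged mice lay above both NT mice, where 28.9% of all genes did so, and in 2 members, Ddit3 and Dnajc3, all 6 lay below, where 40.6% of all genes did.

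**Figure D1:**
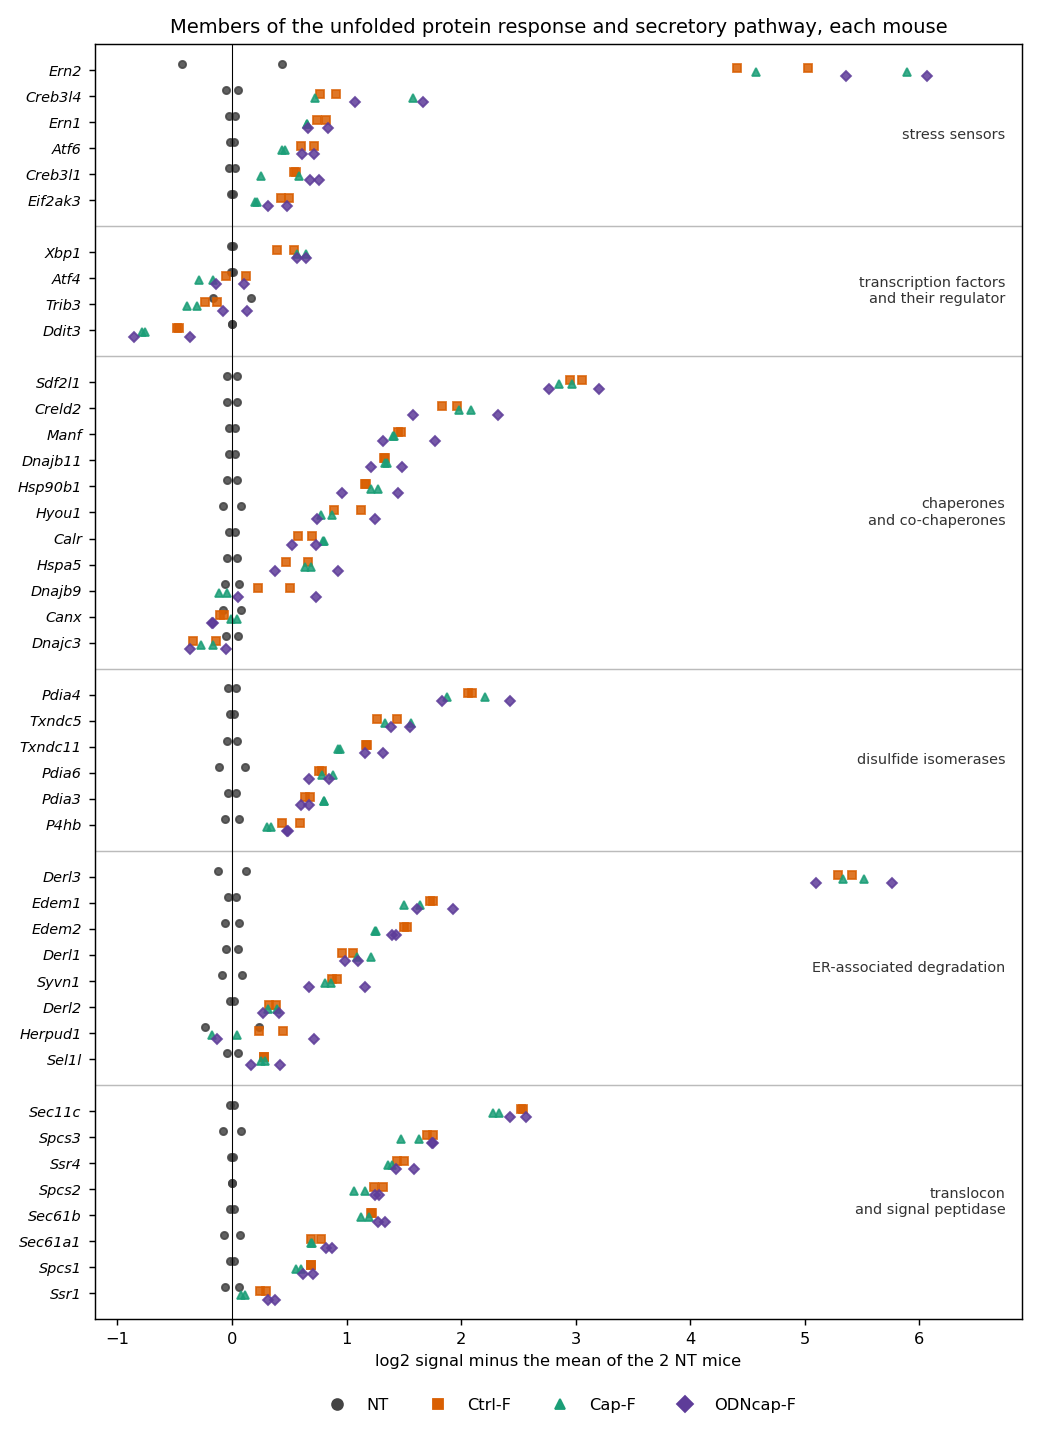
Log2 signal of each member in each mouse, less the mean of the NT mice (horizontal axis), with 1 line per gene grouped by role and 1 point per mouse (2 mice per group). Most members lie to the right of the NT points in all challenged mice, by 5.35 in Derl3 of Ctrl-F. Atf4 and Canx lie near or left of 0, and Ddit3 and Dnajc3 lie left of it in all 6.

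RNA was taken from lung tissue of many cell types, in which more cells of a secreting type and more RNA per cell cannot be told apart. The study also collected lavage fluid from mice killed for their lungs, and it does not say whether the lungs used for RNA were lavaged. Markers of mucous and plasma cells were higher where the members were. All 12 goblet and mucous cell markers were called higher in Ctrl-F against NT, where 26.2% of all genes were called higher and 35.7% lower. Their mean log2 signal was 6.0 and 6.61 for the NT mice, 10.94 and 10.64 for Ctrl-F, 10.69 and 11.81 for Cap-F, and 11.34 and 12.03 for ODNcap-F. In NT, Foxa3, Gcnt3 and Slc5a1 were not well above background on either array, and Clca1 was so on 1. Of 11 plasma cell and B cell markers 10 were called higher, with a median of 2.13 and the exception of Sdc1, and their mean log2 signal was 9.12 to 9.48 in NT against 12.32 to 12.51 in the challenged mice. All of these 11 were well above background in NT. Markers of other cells were called lower in the same comparison, 5 of 6 for club cells, which also secrete, 5 of 5 for alveolar type 1 cells and 7 of 7 for endothelium. Inflammatory cells gave 7 of 7 eosinophil, 5 of 6 T cell and 5 of 8 macrophage markers called higher, and 2 macrophage markers lower. Few were called one way for neutrophils (1 of 5 higher, 2 lower) and fibroblasts with smooth muscle (2 of 7 higher, 1 lower), and alveolar type 2 cells (1 of 8 higher, 4 lower) and cardiomyocytes (4 of 6 lower) had more calls down than up. The part of these cells in the changes of the members was not tested.

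Among the 6 stress sensors, 5 were called higher in Ctrl-F against NT, 5 in Cap-F and 6 in ODNcap-F. Of all genes 26.2%, 24.1% and 25.1% were called higher, and these shares also stand beside the other roles below. Ern2 (NM_012016) encodes the form of the sensor kinase and RNase IRE1 that is found in mucous epithelia. Log2 signals were 4.77 and 5.64 for the NT mice, 10.23 and 9.61 for Ctrl-F, 9.78 and 11.10 for Cap-F, and 10.57 and 11.27 for ODNcap-F. All challenged mice lay far above both NT mice, and the mice of a group differed more from each other than for most members. Against NT the log2 fold change was 4.72 ± 0.54 (SE, n = 2 against 2; limma adjusted p = 0.000673) for Ctrl-F, 5.23 for Cap-F and 5.71 for ODNcap-F.

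The sensor of most other cells, Ern1 (NM_023913), had a smaller change. Signals were 8.04 and 8.09 for the NT mice, 8.89 and 8.81 for Ctrl-F, 8.72 for both Cap-F mice, and 8.73 and 8.90 for ODNcap-F. NT and challenged mice did not overlap, and the log2 fold changes were 0.78, 0.66 and 0.75. Atf6 (NM_001081304), the sensor that is cut in the Golgi and travels to the nucleus, gave 9.65 and 9.61 for the NT mice, 10.35 and 10.23 for Ctrl-F, 10.07 and 10.09 for Cap-F, and 10.24 and 10.35 for ODNcap-F. Again no challenged mouse reached down to NT, and the differences from NT were 0.66, 0.45 and 0.66.

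Eif2ak3 (NM_010121), which encodes the translation-arresting kinase PERK, had signals of 10.04 and 10.01 for the NT mice, 10.52 and 10.45 for Ctrl-F, 10.25 and 10.23 for Cap-F, and 10.34 and 10.50 for ODNcap-F. It was called higher in Ctrl-F by 0.46 and in ODNcap-F by 0.39, while the difference of 0.21 in Cap-F missed the threshold (limma adjusted p = 0.0615). Creb3l1 and Creb3l4 are membrane-bound relatives of ATF6. Creb3l1 was called higher in all 3 groups, by 0.55, 0.42 and 0.72, whereas Creb3l4 was at 0.84 in Ctrl-F (limma adjusted p = 0.0573) and was called higher by 1.15 in Cap-F and 1.37 in ODNcap-F.

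Of the 3 transcription factors downstream of the sensors and the regulator Trib3, 1 was called higher and 1 lower in each challenged group. Xbp1 (NM_013842), whose messenger is spliced by IRE1, had log2 signals of 14.86 and 14.88 for the NT mice, 15.26 and 15.41 for Ctrl-F, 15.52 and 15.44 for Cap-F, and 15.44 and 15.52 for ODNcap-F. All 6 challenged mice were higher, by a mean of 0.46, 0.61 and 0.61, and by 0.80, 0.82 and 0.91 with 75th percentile scaling. The array probes were not used to tell spliced from unspliced Xbp1.

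The members downstream of PERK were not called higher. Atf4 (NM_009716), whose protein is made mainly through translation and not through its messenger level, gave 15.64 and 15.66 for the NT mice, 15.59 and 15.77 for Ctrl-F, 15.36 and 15.49 for Cap-F, and 15.51 and 15.76 for ODNcap-F. Challenged and NT mice overlapped in Ctrl-F and ODNcap-F, the log2 differences were 0.03, -0.22 and -0.02, and none was called by limma. Other settings called Atf4 in either direction. Scaled to the 75th percentile of each array it was at 0.38 in Ctrl-F (limma adjusted p = 0.0229), and its dimmer probe was called in Ctrl-F at 0.39 and in ODNcap-F at 0.33 (limma adjusted p = 0.00639 and 0.0123). The local-pooled-error test, in which probes of like intensity lend their spread to the gene in place of its own mice, called it lower in Cap-F (adjusted p = 0.0293).

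Ddit3 (NM_007837), which encodes the pro-apoptotic factor CHOP, was the member called lower. It had 9.57 for both NT mice, 9.09 and 9.11 for Ctrl-F, 8.81 and 8.78 for Cap-F, and 8.72 and 9.21 for ODNcap-F. Every challenged mouse was below NT, and it fell by 0.47, 0.77 and 0.61 on the log2 scale, with limma adjusted p = 0.0377, 0.0069 and 0.0161. Leaving out any NT, Ctrl-F or Cap-F mouse took the Ctrl-F call away, with adjusted p between 0.0598 and 0.12, and leaving out an NT mouse or fitting only the groups compared (limma adjusted p = 0.0535) did so for ODNcap-F, where the value was -0.37 without mouse 1. Trib3, a pseudokinase induced by ATF4 and CHOP, was at -0.18, -0.35 and 0.03 and was not called.

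Chaperones and co-chaperones were called higher in 8 of 11 in each challenged group, 6 of them more than 2-fold in Ctrl-F. Sdf2l1 (NM_022324), a partner of the luminal Hsp70 and its J-proteins, had log2 signals of 9.52 and 9.60 for the NT mice, 12.51 and 12.61 for Ctrl-F, 12.42 and 12.52 for Cap-F, and 12.33 and 12.76 for ODNcap-F. All 6 challenged mice were far above NT, 8.02-fold for Ctrl-F (log2 3.0 ± 0.15, SE, n = 2 against 2; limma adjusted p = 4.05e-05), 7.53-fold for Cap-F and 7.94-fold for ODNcap-F. Creld2 (NM_029720), an ER stress-inducible protein with disulfide isomerase activity, gave 13.88 and 13.96 for the NT mice, 15.75 and 15.89 for Ctrl-F, 15.90 and 16.00 for Cap-F, and 15.50 and 16.24 for ODNcap-F. The groups did not overlap with NT, and the differences were 1.90, 2.03 and 1.95.

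Hspa5 (NM_022310) encodes BiP, the luminal Hsp70 that holds the sensors inactive and is the usual readout of the response. Its signals were 14.91 and 15.004 for the NT mice, 15.42 and 15.62 for Ctrl-F, 15.65 and 15.59 for Cap-F, and 15.33 and 15.88 for ODNcap-F. All challenged mice were higher, but by only 0.57, 0.66 and 0.65 on the log2 scale, with limma adjusted p = 0.0372, 0.0237 and 0.0242. The Ctrl-F call was lost when any mouse of NT, Ctrl-F or Cap-F was left out, with limma adjusted p between 0.0584 and 0.153. Leaving out an NT mouse also ended the Cap-F and ODNcap-F calls, and so did a Cap-F mouse for Cap-F and a fit of only the groups compared for ODNcap-F (limma adjusted p = 0.0613). The ODNcap-F value was 0.37 without mouse 2, and with 75th percentile scaling the Ctrl-F value was 0.91. The brightest of its 3 probes gave the lowest value, and the other probes gave 1.03 and 1.20 in Ctrl-F (limma adjusted p = 0.00469 and 0.00349). Both of these were called higher against NT in each challenged group.

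Of the other 8 chaperones and co-chaperones 5 were called in Ctrl-F. Manf, a secreted ER protein that binds BiP, was at 1.46 in Ctrl-F, the J-protein Dnajb11 at 1.33, the luminal Hsp90 Hsp90b1 at 1.17, the nucleotide exchange factor Hyou1 at 1.01 and the lectin chaperone calreticulin, Calr, at 0.64. Not called by the brightest probe were the membrane-bound lectin chaperone calnexin, Canx, at -0.09, and the BiP co-chaperones Dnajb9 and Dnajc3 at 0.37 and -0.24. Both lectin chaperones bind the same sugar on new glycoproteins, and only Calr passed the test; the difference between them was not tested.

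All 6 disulfide isomerases, which form and rearrange the disulfide bonds of secreted proteins, were called higher in each challenged group. Pdia4 (NM_009787) led them, with log2 signals of 10.47 and 10.54 for the NT mice, 12.57 and 12.60 for Ctrl-F, 12.38 and 12.72 for Cap-F, and 12.34 and 12.94 for ODNcap-F. The challenged mice lay above NT without overlap, by 2.08 ± 0.21 (SE, n = 2 against 2; limma adjusted p = 0.000431) for Ctrl-F, 2.04 for Cap-F and 2.13 for ODNcap-F. Txndc5 followed at 1.35 and Txndc11 at 1.17, and Pdia6, Pdia3 and P4hb were at 0.77, 0.66 and 0.51 in Ctrl-F.

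ER-associated degradation held the member with the largest change in Ctrl-F. Derl3 (NM_024440) encodes a derlin, a membrane protein of the channel through which misfolded proteins leave the ER. Its log2 signals were 7.85 and 7.61 for the NT mice, 13.14 and 13.02 for Ctrl-F, 13.06 and 13.25 for Cap-F, and 12.83 and 13.49 for ODNcap-F. Even the lowest challenged mouse was far above the higher NT mouse. The mean difference of 5.35 ± 0.22 (SE, n = 2 against 2; limma adjusted p = 2.35e-05) for Ctrl-F was 40.9-fold, and it was 42.9-fold for Cap-F and 43.1-fold for ODNcap-F.

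Smaller changes were called for its relatives, 1.01 for Derl1 and 0.35 for Derl2 in Ctrl-F. Edem1 and Edem2, which pick misfolded glycoproteins by trimming their mannose, were called, at 1.75 and 1.52, and so was the ubiquitin ligase Syvn1 (HRD1) at 0.89. The partner of that ligase, Sel1l, was at 0.28 (limma adjusted p = 0.0504), and Herpud1, which recruits clients to the ligase, was at 0.34 with mice of NT and Ctrl-F touching at 13.72. Neither was called in Ctrl-F by its brightest probe, while the other probe of Sel1l was (limma adjusted p = 2.84e-05).

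By the brightest probe, the translocon and signal peptidase group had all 8 members called in Ctrl-F and in ODNcap-F, and 7 in Cap-F. Sec11c (NM_025468), a catalytic subunit of the signal peptidase, had log2 signals of 9.86 and 9.90 for the NT mice, 12.42 and 12.40 for Ctrl-F, 12.21 and 12.15 for Cap-F, and 12.30 and 12.44 for ODNcap-F. Mice of a group were nearly alike and all challenged mice were far above NT, by 2.53 ± 0.07 (SE, n = 2 against 2) for Ctrl-F with the lowest limma adjusted p of any member, 8.4e-06. The accessory subunits of the same peptidase, Spcs3, Spcs2 and Spcs1, were at 1.73, 1.28 and 0.69.

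In the translocon itself the channel subunit Sec61a1 was at 0.73 and the tail-anchored subunit Sec61b at 1.22 in Ctrl-F. The translocon-associated proteins Ssr4 and Ssr1 were at 1.47 and 0.27. All 4 were called in Ctrl-F, and in Cap-F Ssr1 was at 0.10 by its brightest probe and was not called. The other probe of Ssr1 was called higher in Cap-F, at 1.56 (limma adjusted p = 5.3e-05).

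**Figure D2:**
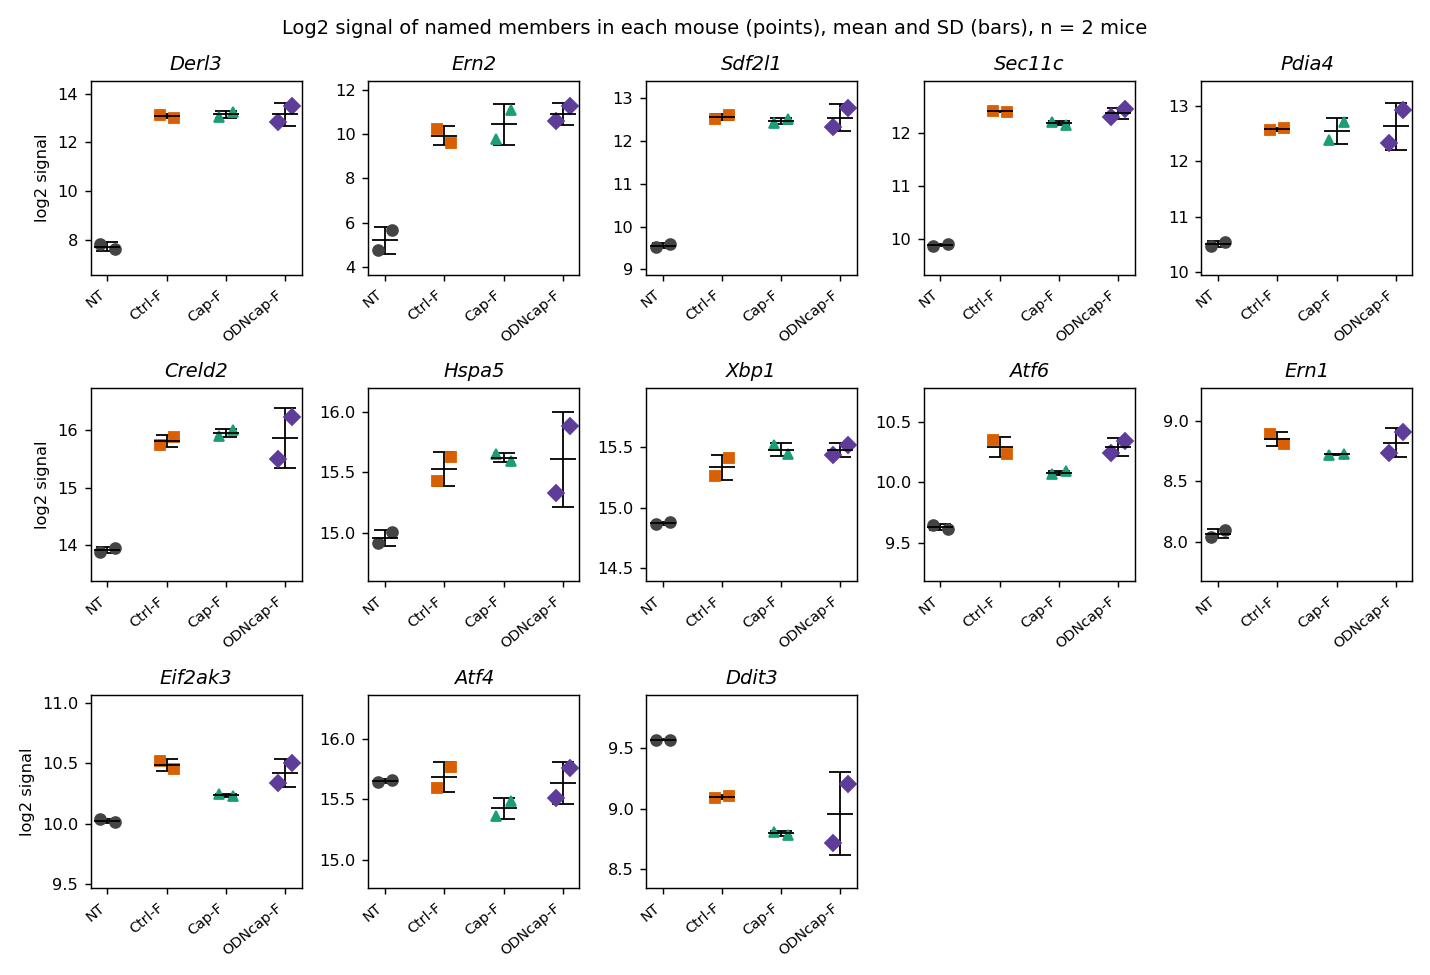
Log2 signal (vertical axis, a separate scale in each panel) of 13 members in each mouse (points), with the group mean and SD (bars, 2 mice per group). From NT to Ctrl-F, Derl3 rises by 5.35 and Ern2 by 4.72, Hspa5 and Xbp1 by 0.57 and 0.46, Atf4 overlaps NT, and Ddit3 is below NT in all challenged mice.

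Several probes were kept for 20 of the 43 members, 67 kept probes over all members, and for these 20 every probe had the same sign in Ctrl-F against NT. The size differed. In 4 members a dimmer probe was at least 1 log2 unit higher than the brightest, with 3.88 against 1.75 for Edem1, 2.83 against 1.17 for Txndc11, 1.88 against 0.27 for Ssr1 and 1.63 against 0.28 for Sel1l. Dnajb9, which was not called by its brightest probe at 0.37, had 1.30 on the other (limma adjusted p = 0.00242). That probe was called higher against NT in each challenged group. For Ern2 the brightest probe gave the larger value, 4.72 against 1.57. Which probe follows which isoform was not tested, and values for these 6 genes depend on the probe.

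**Figure D3:**
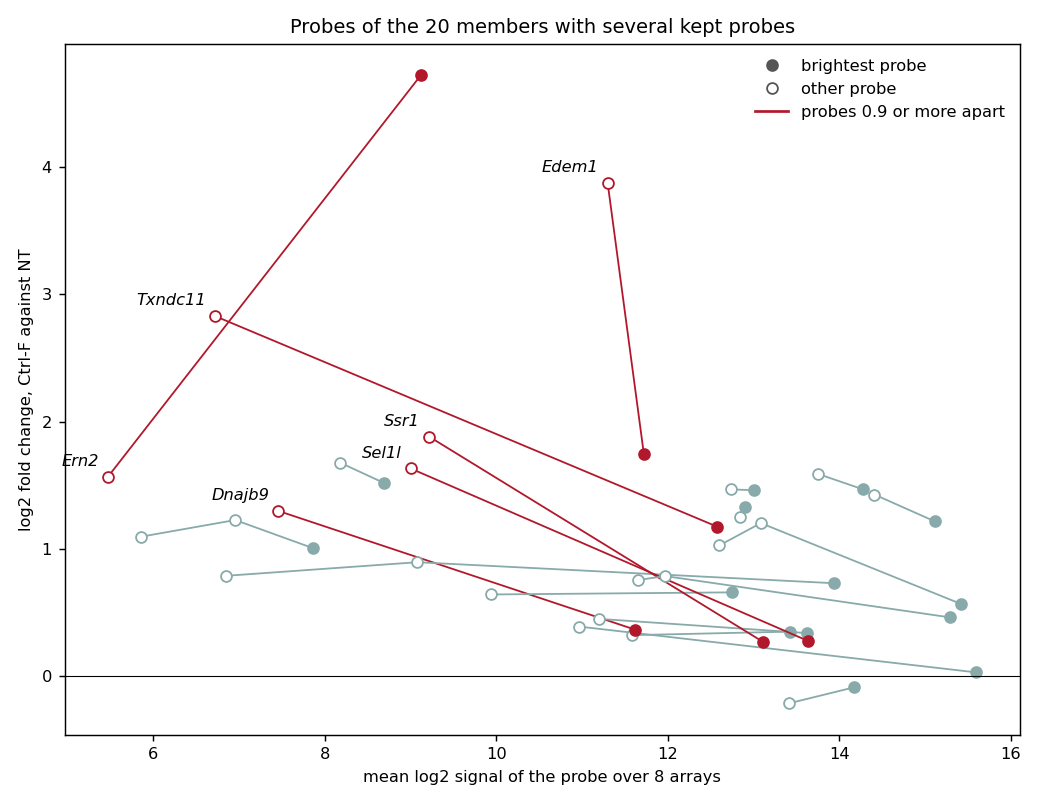
Log2 fold change of Ctrl-F against NT (vertical axis) against the mean log2 signal of the probe over the 8 arrays (horizontal axis) for the 20 members with several kept probes; lines join the probes of a gene. All probes of a gene lie on the same side of 0, and the 6 named genes have probes 0.9 or more apart.

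The start of each gene was read for the known elements of the response. The 250 bases upstream of the RefSeq start (table of build GRCm38.p6) were there for 34 of the 43 members; Atf6, Creb3l1, Derl1, Ern2, Hyou1, Manf, Sec11c, Sec61a1 and Spcs3 had no entry. Both strands were searched for exact matches to the ER stress response element ERSE (CCAAT, then 9 bases of any kind, then CCACG), bound by NF-Y and ATF6, to ERSE-II (ATTGG, then 1 base, then CCACG), to the XBP1 and ATF6 element UPRE (TGACGTGG) and to the ATF4 element CARE (TGATGCAA). No 2 matches overlapped. ERSE was found in 9 of the 34 members (26.5%), against 35 of 27025 genes in the table (0.13%), of which these 9 are part. The members were listed by name for their roles in this response, so an excess of its elements would follow from the list alone. It tells nothing about the change after allergen, and this holds for the other elements too. The spacing of the 10 matches from the start ran from 25 to 212 bases, 6 of them on the strand of the gene and 4 on the other. They are shown here to compare their spacers, written in the orientation of the motif with its fixed letters in capitals:

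Calr: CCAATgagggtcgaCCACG
Canx: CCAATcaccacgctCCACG
Creld2: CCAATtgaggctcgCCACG
Derl3: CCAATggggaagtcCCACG
Dnajc3: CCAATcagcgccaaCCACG
Hsp90b1 upstream copy: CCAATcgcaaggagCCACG
Hsp90b1 downstream copy: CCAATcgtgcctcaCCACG
Hspa5: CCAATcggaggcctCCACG
Pdia6: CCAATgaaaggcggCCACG
Syvn1: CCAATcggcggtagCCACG

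Of the 9 members with an ERSE match, 7 were called higher in Ctrl-F against NT, with a median of 0.77 over the 9. Of the 25 with a window and no exact match, 18 were called higher, with a median of 0.69. Canx and Dnajc3 had a match and no call. The element was present at Derl3, the member with the largest change in Ctrl-F, at Hspa5 with a small change and at Canx with none, and it is a match in letters and not a measured binding site.

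ERSE-II was found in Herpud1 alone of the members (2.94%, against 0.037% of all genes), and so was CARE (2.94%, against 0.918%). UPRE was found in Txndc5 and Txndc11 (5.88%, against 0.603%), which were called at 1.35 and 1.17. Whole upstream windows are shown for Derl3, Hsp90b1 with its 2 elements, Hspa5, Herpud1 with ERSE-II and CARE, and Sdf2l1. Sdf2l1 was 8.02-fold higher in Ctrl-F with none of the 4 motifs in these letters. The windows are written from far to near the start, on the strand of the gene, with matches in capitals. CCAAT boxes on the other strand read ATTGG:

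Derl3 (chr10:75893148-75893397, plus strand): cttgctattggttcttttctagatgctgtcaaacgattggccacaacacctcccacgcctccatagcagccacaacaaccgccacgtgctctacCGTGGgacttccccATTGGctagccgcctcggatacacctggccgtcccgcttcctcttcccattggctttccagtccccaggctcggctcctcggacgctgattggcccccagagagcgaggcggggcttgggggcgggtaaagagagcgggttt
Hsp90b1 (chr10:86705445-86705694, minus strand): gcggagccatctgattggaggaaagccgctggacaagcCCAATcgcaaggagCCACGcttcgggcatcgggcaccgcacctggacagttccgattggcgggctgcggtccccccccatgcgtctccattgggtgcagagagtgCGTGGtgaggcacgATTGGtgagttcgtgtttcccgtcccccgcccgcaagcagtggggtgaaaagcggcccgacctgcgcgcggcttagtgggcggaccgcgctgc
Hspa5 (chr2:34771840-34772089, plus strand): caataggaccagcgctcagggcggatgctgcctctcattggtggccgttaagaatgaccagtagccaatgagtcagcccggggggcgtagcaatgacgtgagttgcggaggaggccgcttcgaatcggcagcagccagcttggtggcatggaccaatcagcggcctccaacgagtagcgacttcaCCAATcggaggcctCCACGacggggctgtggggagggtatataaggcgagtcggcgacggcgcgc
Herpud1 (chr8:94386179-94386428, plus strand): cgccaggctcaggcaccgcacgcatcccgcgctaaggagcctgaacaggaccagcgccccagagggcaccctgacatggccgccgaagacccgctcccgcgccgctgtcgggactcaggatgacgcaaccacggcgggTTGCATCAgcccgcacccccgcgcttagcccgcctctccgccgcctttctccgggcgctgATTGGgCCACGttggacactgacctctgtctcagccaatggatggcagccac
Sdf2l1 (chr16:17132384-17132633, minus strand): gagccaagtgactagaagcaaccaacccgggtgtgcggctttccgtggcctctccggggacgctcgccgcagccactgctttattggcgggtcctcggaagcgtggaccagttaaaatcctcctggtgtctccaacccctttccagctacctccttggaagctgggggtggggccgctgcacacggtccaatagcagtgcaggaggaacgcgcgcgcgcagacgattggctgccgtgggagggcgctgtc

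**Figure D4:**
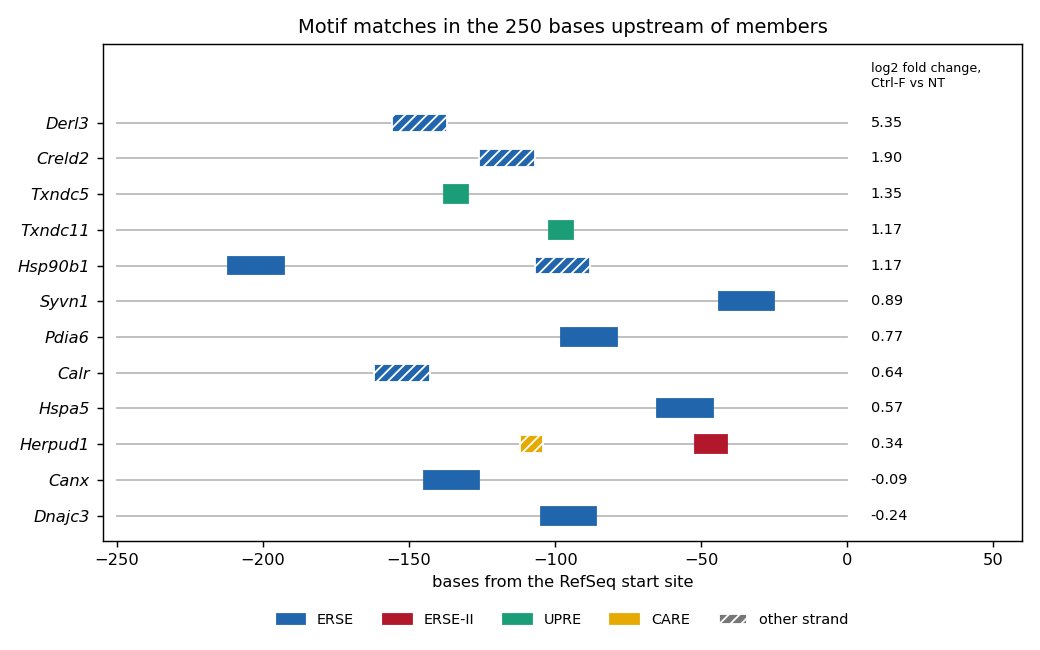
Position of motif matches, in bases from the RefSeq start (horizontal axis), in the upstream windows of the 12 members that hold any; color gives the motif, hatching the other strand, and the number at the right the log2 fold change of Ctrl-F against NT. Matches lie throughout the window, and genes with an ERSE run from 5.35 in Derl3 to -0.24 in Dnajc3.

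The feeds were then compared among challenged mice, to ask whether ODNcap-F or its particles changed the pathway. None of the 43 members was called by limma between any 2 of the 3 challenged groups. The calls over all genes were 0.00345% in Cap-F against Ctrl-F, 0% in ODNcap-F against Ctrl-F and 0.00345% in ODNcap-F against Cap-F. ODNcap-F against Ctrl-F had a median of 0.02 over the members, from -0.14 to 0.99, and the lowest limma adjusted p was 0.766. The sign of this median rested on 1 mouse, since it was -0.11 without ODNcap-F mouse 2 and 0.14 without mouse 1. In 33 of the 43 members the mice of these groups overlapped, ODNcap-F was above Ctrl-F without overlap in 8, where 17% of all genes were, and below in 2, where 18.6% were. No member had an unadjusted p under 0.05, where 6.78% of all genes had.

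Ern2 had the largest difference there, 0.99 ± 0.54 (SE, n = 2 against 2), and no overlap of the mice (limma adjusted p = 0.766). The local-pooled-error test called Ern2 as the 1 member (adjusted p = 3.94e-06), where 0.838% of all genes were called. The mean signal of the goblet and mucous cell markers was also higher in the ODNcap-F mice, as given above. None of the 12 markers was called in this comparison (lowest limma adjusted p = 0.74), where 0% of all genes were. By periodic acid-Schiff staining, which shows mucin and not RNA, the study found positive bronchial cells significantly decreased in ODNcap-F. The part of these markers in the difference of Ern2 was not tested.

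Cap-F against Ctrl-F had a median of -0.06 over the members (-0.12 without Cap-F mouse 2, -0.04 without mouse 1, and -0.17 with 75th percentile scaling), and the lowest limma adjusted p was 0.195, for Edem2. Unadjusted, 5 members (Edem2, Eif2ak3, Sec11c, Txndc11 and Atf6) were lower in Cap-F with a p under 0.05, where 7.64% of all genes were, and none was higher, where 8.99% were. These differences were small, from -0.21 in Atf6 to -0.26 in Edem2. Cap-F was below Ctrl-F without overlap in 22 members, where 25.8% of all genes were, and above in 8, where 25.9% were. Among those below were 7 of the 8 members of the translocon and signal peptidase.

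ODNcap-F against Cap-F had a median of 0.14, and the lowest limma adjusted p was 0.263, for Txndc11. Unadjusted, 6 members (Txndc11, Ssr1, Atf6, Trib3, Creb3l1 and Sec11c) were higher with a p under 0.05, where 5.98% of all genes were, and Canx was lower, where 7.4% were. ODNcap-F was above Cap-F without overlap in 18 members, where 21% of all genes were, among them all 8 of the translocon and signal peptidase at 0.08 to 0.25, and below in 3, where 24.7% were. The median was -0.05 without ODNcap-F mouse 2 and 0.26 without mouse 1. The translocon counts of Cap-F against Ctrl-F and of ODNcap-F against Cap-F rest on the same 2 Cap-F mice and are not independent. In ODNcap-F against Ctrl-F the median of this role was 0.03. There 5 of the 8 overlapped and 3 were above without overlap, where 17% of all genes were.

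**Figure D5:**
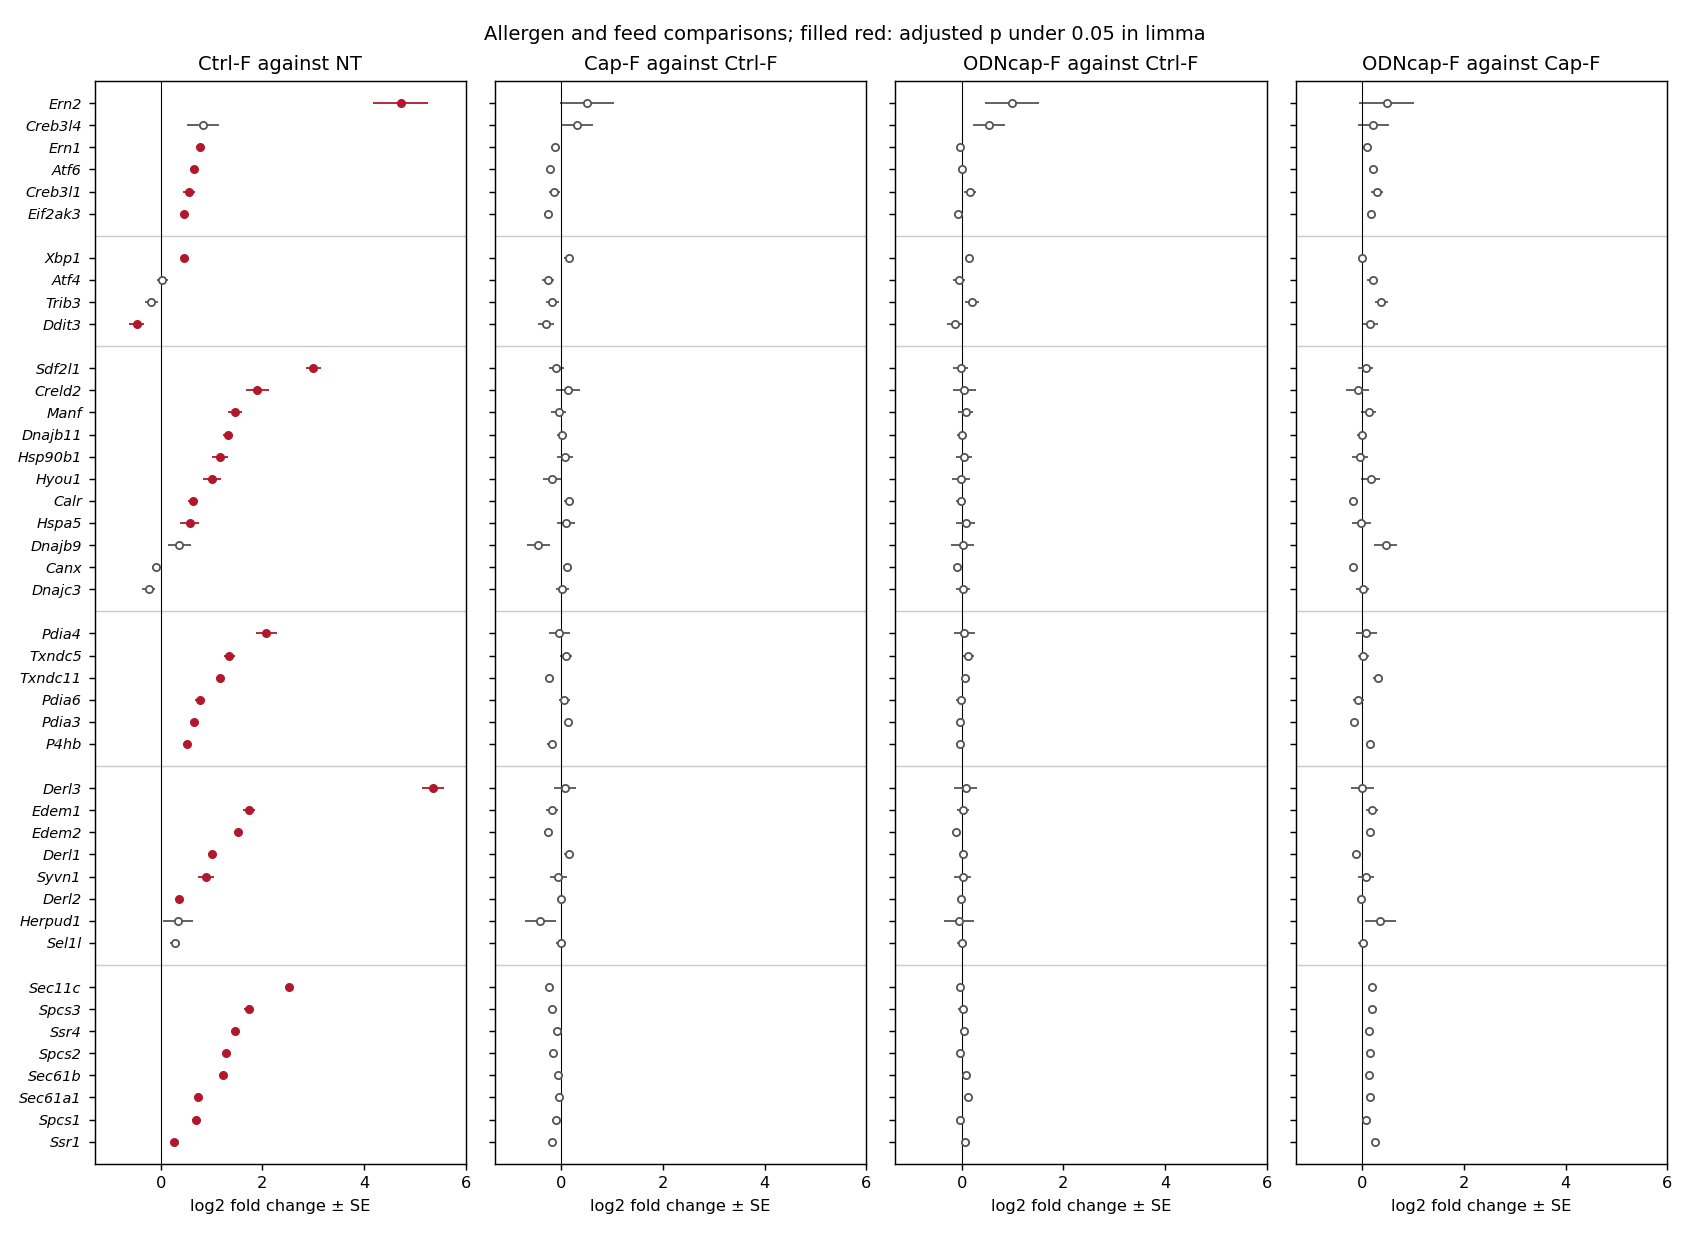
Log2 fold change with its SE (horizontal axis, bars; 2 mice per group) of each member in Ctrl-F against NT and in the 3 comparisons among challenged groups; filled red points have an adjusted p under 0.05 in limma. Red points fill the first panel, and the other panels hold none, with Ern2 the farthest from 0 at 0.99 in ODNcap-F against Ctrl-F.

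The 2 ODNcap-F mice differed from each other across the pathway. In 41 of the 43 members mouse 2 was higher than mouse 1, by a median of 0.17, while 48.2% of all genes were higher in that mouse with a median of -0.01. In 9 members the gap exceeded 0.5, where 4.84% of all genes did, with 0.84 in Herpud1, 0.74 in Creld2, 0.70 in Ern2, 0.68 in Dnajb9 and 0.66 in Derl3. In the other groups mouse 2 was the higher in 31 (NT), 26 (Ctrl-F) and 25 (Cap-F) of the members. The goblet and mucous cell markers differed the same way between these mice, at 11.34 in mouse 1 and 12.03 in mouse 2, while the plasma cell and B cell markers were at 12.39 in both. Cardiomyocyte markers were at 9.77 and 10.43, and neutrophil markers at 12.79 and 12.18. Between the Cap-F mice the goblet and mucous cell markers differed more, at 10.69 and 11.81, while the members differed by a median of 0.01. The part of these markers in the difference was not tested.

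Beyond the 43 members, 147 further genes of the same pathways were tested, from lists drawn up by function. In Ctrl-F against NT 82 were called higher and 22 lower, where 26.2% of all genes were called higher and 35.7% lower. Of the 82, 21 were more than 2-fold higher, where 10.5% of all genes were. The median over the 147 was 0.25 against 0.78 for the members. Members and lists were chosen with earlier results of these data known, so this contrast can follow from the choice. The same shares of all genes stand beside the counts of each list below. Of 22 other folding enzymes 10 were higher and 5 lower. The largest fitted changes were those of the mucous cell disulfide isomerase Agr2, at 4.17, the calnexin homolog Clgn and the prolyl isomerase Fkbp11. Clgn was well above background on neither NT array and Fkbp11 on 1, so that they were at least 5.33-fold and 6.74-fold higher (limma adjusted p = 1.94e-05 and 0.000494). The oxidase Ero1b, named after its values were seen, was 7.06-fold higher and well above background throughout, so that the order of these 3 is not settled. The lowest were Uggt2 at -0.91, Fkbp14 at -0.59 and Pdia5 at -0.39. Agr2 is also among the goblet and mucous cell markers. These bounds set the Ctrl-F mean against the lowest signal well above background on each NT array or the gene's own, whichever was higher. The adjusted p beside a bound, here and below, belongs to the fitted difference and not to the bound.

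Of 17 further ER-associated degradation genes 10 were called higher and none lower, led by the ubiquitin-conjugating enzyme Ube2j1 at 1.91. Of 30 translocon, signal recognition and glycosylation genes 21 were higher, led by Ostc at 1.19, Srp9 at 1.08 and Srp19 at 0.93, and 5 were lower, among them Sec61a2 at -0.74, Sec62 at -0.66 and Sec63 at -0.55. Of 35 genes of vesicle transport between ER and Golgi 19 were higher, led by Ergic1 at 2.29, the cargo lectin Lman2 at 1.45 and the KDEL receptor Kdelr3 at 1.20, and 3 were lower, none below -0.34.

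Targets of PERK and ATF4 were called in both directions, more of them higher. Of 24 tested, 13 were called higher and 5 lower in Ctrl-F against NT, where 26.2% of all genes were called higher and 35.7% lower. The cystine transporter Slc7a11, well above background on 1 NT array, was at least 24.4-fold higher (limma adjusted p = 0.000179), the stress factor Atf3 was at 3.36 and the folate enzyme Mthfd2 at 2.44, whereas Ppp1r15a, which ends the translational arrest by PERK, was at -0.83, Atf5 at -0.73 and the amino acid transporter Slc7a5 at -0.70. Of 19 factors that process or relay the sensors 9 were higher, led by Creb3l3, at least 7.05-fold higher (limma adjusted p = 0.000115) and not well above background in NT, and 4 lower, led by the ER calcium leak protein Tmbim6 at -0.68 and the ATF6-cutting protease Mbtps1 at -0.61.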

How the data were processed

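Lung RNA of 8 mice was measured on 8 arrays, and the labels gave 2 mice to each of the 4 groups. The authors deposited, per array, the background-subtracted intensity of each spot from Agilent Feature Extraction 11.0 with its flags, and 1 table of quantile-normalized log2 values for 32312 probes. Here 792 flagged spot values were set to missing, the log2 of the others was averaged per probe (56605 probes), and arrays were quantile normalized. The filter asked for a signal well above background in both mice of 1 or more groups and left 37116 probes. Each array had 61.3% to 65% of its probes at that level. Names came from RefSeq accessions, which named 24290 kept probes. Gene coordinates in the files' build were not used. The probe with the highest mean stands for a gene.

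One limma fit (limma 3.58.1, R 4.3.3) over 8 arrays and 4 groups without covariate gave 6 comparisons, with 4 residual and 1.96 prior degrees of freedom. The study used the local-pooled-error test, rebuilt here as an alternative, and a fold change over 2. The limma fit and the rebuilt test were tested on simulated data. The changes simulated were larger than most of those in the members, so small changes were not covered. Nothing in the labels says that mice came from separate cages or litters, so p-values measure the spread between these mice. Members, lists and tests were chosen with earlier results of these data known. Values per mouse are given for 8 regulators and for members with the 6 largest called changes against NT; up to 3 called genes each way are named per other list. Fgf21 did not pass the filter. The alternatives were those listed under the dependence on the processing.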

Additional observations from a re-analysis of the deposited data

How the results depend on the processing

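The counts of members called against NT (35 for Ctrl-F, 34 for Cap-F and 37 for ODNcap-F) ran from 33 to 37, from 32 to 37 and from 34 to 38 under 75th percentile scaling, normexp background correction (offset 50, on median signals), the deposited log2 table, either other filter, an intensity trend, fits of only the groups compared, the mean of a gene's probes, the local-pooled-error test and a p before adjustment. They dropped to 19, 18 and 19 when a fold change over 2 was also asked for. Without a filter, Hspa5 lost its calls (adjusted p 0.0516 to 0.0758, limma) and Ddit3 its call in Ctrl-F (0.0727). With a mouse left out the counts ran from 32 to 37, from 29 to 36 and from 31 to 38, the remaining mouse being assumed to vary like the others. Between challenged groups the count of 0 held in all of these, from 0 to 0 with a mouse left out, except with an unadjusted p, which gave 5 members for Cap-F against Ctrl-F. For ODNcap-F it gave 7 against Cap-F. The local-pooled-error test gave 1 (Ern2), in ODNcap-F against Ctrl-F.

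Replicate numbers only name the mice: deviations of same-numbered mice correlated between -0.0123 and 0.161. With the number as a replicate block the counts were 36, 34 and 37 against NT and 0 between challenged groups.

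Of 1248 values for 13 named genes over 6 comparisons and 16 settings, 1217 kept their side of the threshold. Calls were lost in 26 (Hspa5 and Ddit3) and gained in 5 (Atf4 in Ctrl-F, Eif2ak3 in Cap-F), and no called value changed sign. Comparisons between challenged groups had no call in the main fit to lose, and some genes were named for their largest called changes. Much of this agreement was therefore set in advance. Changes of sign without a call were not counted, and Atf4 in Ctrl-F against NT ran from -0.06 to 0.38. Eif2ak3 in Cap-F against NT was called with the deposited table, the intensity trend, or either ODNcap-F mouse left out (adjusted p 0.0352 to 0.0454, limma). The median over the members in Ctrl-F against NT was 0.95 with 75th percentile scaling and 0.93 with the mean of probes. In ODNcap-F it was 1.04 with that scaling and 0.68 without mouse 2. The cause was not tested. With 2 arrays per group, small differences between feeds could not be detected.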
